A study of Rattus norvegicus with 18 samples.

Results

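Kidney RNA of diabetic rats fed a high dose of plantain flour (HP, 4 g per kg body weight) was compared with that of diabetic rats fed a medium dose (MP, 2 g per kg). The comparison took the 3 HP and the 3 MP libraries, 6 of the 18 in the series, chosen by their labels, and covered all 29 listed features. The animals of both groups were male, 23 weeks old and labelled diabetic, so diabetes was shared by both groups. The 1 g per kg group (LP) and the diabetic group without flour (DM, 0 g per kg) appear below where the dose series is shown. The labels call the doses high, medium and low, and the amounts in g per kg come from the series' design text. The strain, the way diabetes was brought about, the length of feeding and whether the libraries came from separate animals are not stated in the labels or the design text.

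Plantain flour is a starchy meal made from cooking bananas. The kidney cortex is rich in proximal tubule cells, which reabsorb phosphate, amino acids and glucose, make new glucose from small molecules, and run on mitochondrial ATP. The mitochondrial genome codes for a small part of the respiratory chain, among them subunits of complex I, complex III, complex IV and ATP synthase. The remaining parts of that chain, and the enzymes and transporters described below, are coded in the nucleus.

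The table analysed here held 12 mitochondrial genes, 16 nuclear genes and 1 unnamed feature, and other genes were not analysed here. Summed over the list, a library had between 5483969 and 7552061 counts in HP and between 5584611 and 6505887 counts in MP. These sums cover the listed features, so they are not library depths. Counts of a feature in the 6 libraries lay between 25605 and 2059219. HP replicate 1 stood apart from the other HP libraries: a chi-square of its counts against theirs was 2566 and 3662 per degree of freedom, against 233 between HP replicates 2 and 3, and from 612 to 1872 among the MP libraries. Among proximal tubule markers, Slc34a1, Miox and Pck1 were listed, and the lowest count of any of them in the 6 libraries was 26296. Of 28 markers in 9 lists for other cell types of the kidney, blood, immune system and stroma, 0 were among the listed features, so the cell makeup of the samples could not be set beside the results. In bulk tissue, fewer cells of a type and less RNA per cell cannot be told apart.

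A short list in which mitochondrial genes take most of the counts makes every fold change depend on how libraries are scaled. Each gene was therefore tested under 4 scalings with edgeR's quasi-likelihood test, and Benjamini-Hochberg adjusted p-values over the 29 features were read at a threshold of 0.05. Libraries were scaled by the trimmed mean of M-values (TMM), by median-of-ratios factors, by the 16 nuclear genes (their geometric mean), or not at all. A difference is said to be held when it passed in the same direction under all 4. This was so for 7 of the 29 features (24.1%), of which 4 were lower and 3 were higher in HP than in MP.

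The held genes described here are 6 of the 7. Those lower in HP were Pck1, the cytosolic phosphoenolpyruvate carboxykinase of gluconeogenesis; Gpx3, the glutathione peroxidase that the kidney secretes into plasma; and Cyp2c23, a cytochrome P450 that turns arachidonic acid into epoxides. Those higher in HP were Aadat, which transfers amino groups in the breakdown of lysine and tryptophan; Slc3a1, the heavy chain of the cystine and dibasic amino acid transporter of the brush border; and Gclc, the catalytic subunit of the first enzyme of glutathione synthesis. Pck1 and Gpx3 fell by a factor above 2 under each scaling, and the others moved by less than 2-fold.

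Promoters of the genes that fell most (Pck1 and Gpx3) and of the genes that rose most (Aadat and Slc3a1) are shown to set the regulatory sequence beside the direction of change. They are RefSeq sequences of the build GRCr8 and run 5′ to 3′ in the direction of the gene, from 250 bases before the start to 50 bases after it. Capitals mark matches, on either strand, to the cyclic AMP response element half-site TGACG, the HNF1 half-site GTTAAT and the nuclear receptor half-site AGGTCA. They lie at chr3:182348322-182348621 (plus strand) for Pck1, chr10:39529085-39529384 (plus) for Gpx3, chr16:34555131-34555430 (minus) for Aadat and chr6:15394700-15394999 (minus) for Slc3a1.
Pck1: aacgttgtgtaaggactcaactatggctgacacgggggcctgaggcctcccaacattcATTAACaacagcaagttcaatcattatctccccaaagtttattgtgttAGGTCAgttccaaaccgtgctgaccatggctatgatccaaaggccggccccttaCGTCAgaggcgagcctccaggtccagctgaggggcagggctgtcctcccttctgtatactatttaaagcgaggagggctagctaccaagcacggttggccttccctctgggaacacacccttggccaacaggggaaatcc
Gpx3: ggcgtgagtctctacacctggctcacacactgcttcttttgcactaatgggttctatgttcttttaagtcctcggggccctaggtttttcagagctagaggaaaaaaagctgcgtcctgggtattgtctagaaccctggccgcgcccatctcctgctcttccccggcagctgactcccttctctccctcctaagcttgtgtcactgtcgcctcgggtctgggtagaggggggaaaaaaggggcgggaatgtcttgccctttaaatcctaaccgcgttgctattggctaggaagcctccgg
Aadat: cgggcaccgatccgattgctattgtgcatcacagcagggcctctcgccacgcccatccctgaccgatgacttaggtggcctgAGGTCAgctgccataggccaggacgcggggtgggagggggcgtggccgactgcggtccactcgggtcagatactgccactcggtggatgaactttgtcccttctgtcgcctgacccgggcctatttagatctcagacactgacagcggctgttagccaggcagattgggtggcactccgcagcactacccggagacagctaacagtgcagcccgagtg
Slc3a1: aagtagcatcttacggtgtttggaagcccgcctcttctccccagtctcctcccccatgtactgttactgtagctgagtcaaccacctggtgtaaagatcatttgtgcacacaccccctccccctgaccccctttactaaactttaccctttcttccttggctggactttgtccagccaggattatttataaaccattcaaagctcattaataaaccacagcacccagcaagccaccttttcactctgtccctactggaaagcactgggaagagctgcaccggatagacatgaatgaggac

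The Pck1 promoter contained one match to each motif, 90 bases upstream of the start for TGACG, 144 for AGGTCA and 192 for GTTAAT, and none of these overlapped. Aadat contained an AGGTCA match 168 bases upstream. Gpx3 and Slc3a1 contained no match to these letters in this window. Among 33469 rat promoters of the same length, 21.2% contained TGACG, 7.5% contained GTTAAT and 16.2% contained AGGTCA on either strand. A promoter sequence was found for 13 of the 16 nuclear genes and 6 of the 7 held ones. Of the 13 nuclear genes, 4 had a match to the response element, 4 to the HNF1 motif and 3 to the nuclear receptor motif. Among the held genes with a sequence, Pck1 and Aadat alone had a match. These matches are descriptions of sequence and no binding was measured.

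Pck1, of gluconeogenesis, had the largest fall under TMM among the genes described. Pck1 (chromosome 3, 171213936 to 171219871, as deposited) had 70103, 68349 and 68003 counts in HP replicates 1 to 3, against 172547, 191311 and 148810 counts in MP replicates 1 to 3. In these deposited counts the HP libraries were within a narrow band and lay far below the lowest MP library. After TMM scaling the HP libraries were spread from 58440 to 83758, still below the lowest MP library (155986). Pck1 averaged 68818 ± 1126 counts in HP and 170889 ± 21299 counts in MP (SD, n = 3 each). The log2 fold change was -1.37 (SE 0.15) with TMM, and HP was 2.15-fold to 2.71-fold lower over the 4 scalings, with a highest adjusted p of 9.09e-07 by edgeR's quasi-likelihood test.

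The 2 listed genes of glutathione and antioxidant metabolism, of a list of 10, moved in opposite directions. Gpx3 (chromosome 10, 40247436 to 40255422) had 114684, 101578 and 103975 counts in HP, against 266759, 279885 and 224717 counts in MP. The highest HP library lay far below the lowest MP library. Gpx3 averaged 106746 ± 6978 counts in HP and 257120 ± 28819 counts in MP (SD, n = 3 each). HP was 2.09-fold to 2.64-fold lower over the scalings (log2 fold change -1.33, SE 0.11, under TMM; highest adjusted p 4.95e-08, edgeR).

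Gclc (chromosome 8, 85059051 to 85097468) had 58681, 46500 and 45553 counts in HP, against 41144, 38664 and 33672 counts in MP. In these counts the lowest HP library lay above the highest MP library, with HP replicate 1 well above the other HP libraries. The means were 50245 ± 7321 in HP and 37827 ± 3806 in MP (SD, n = 3 each). After TMM scaling HP replicate 1 was the lowest HP library, with 48918 against 51475 and 56107. HP was 1.20-fold to 1.53-fold higher over the scalings (log2 fold change 0.33, SE 0.08, under TMM; highest adjusted p 0.0107, edgeR). Without HP replicate 1 the highest adjusted p over the scalings was 0.0711, and without MP replicate 3 it was 0.0572 (edgeR). Gclc was then not held, but in each case it passed under 3 of the 4 scalings. Under TMM it passed without these libraries too, with adjusted p-values of 0.00221 and 0.00258 (edgeR). With HP and MP fitted alone and the replicate number as a block, the adjusted p of Gclc under TMM was 0.0677.

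Per kilobase of deposited gene length, Gpx3 had the highest nuclear level in both groups, 72715 counts in HP and 175150 counts in MP. Pck1 had 26257 counts per kilobase in HP, below Cyp4a2 (40954) and Eef1a1 (31399). In MP, Pck1 had 65200 counts per kilobase and stood above Cyp4a2 (51240) and Eef1a1 (32963).

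Cyp2c23 and Cyp4a2 were the listed members of 6 cytochrome P450 genes of arachidonic and fatty acid metabolism. Cyp2c23 (chromosome 1, 263778516 to 263803150) had 35232, 28564 and 27920 counts in HP, against 52805, 50775 and 44107 counts in MP. The HP libraries lay below the MP libraries, with means of 30572 ± 4049 in HP and 49229 ± 4550 in MP (SD, n = 3 each). HP was 1.40-fold to 1.78-fold lower over the scalings (log2 fold change -0.77, SE 0.08, under TMM; highest adjusted p 0.00112, edgeR).

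Cyp4a2, which hydroxylates the end of fatty acids, had 86525, 91372 and 89448 counts in HP, against 114049, 123876 and 96572 counts in MP. The groups did not overlap. It was lower in HP under TMM (log2 fold change -0.38, SE 0.13, adjusted p 0.0417, edgeR), under median-of-ratios factors and without scaling. The TMM call was lost without MP replicate 2 (adjusted p 0.190), MP replicate 3 (0.0695) or HP replicate 1 (0.150). Relative to the nuclear genes the log2 fold change was -0.11 with an adjusted p of 0.0914, so it was not held. Rat Cyp4a genes include near-identical copies whose reads the counting could have split, and its level is uncertain for that reason.

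Aadat and Glul were the listed members of 7 amino acid enzymes. Aadat (chromosome 16, 32832061 to 32868702) had 56676, 48256 and 46716 counts in HP, against 35405, 37488 and 32087 counts in MP. The groups did not overlap, with means of 50549 ± 5361 in HP and 34993 ± 2724 in MP (SD, n = 3 each). HP was 1.31-fold to 1.66-fold higher over the scalings (log2 fold change 0.45, SE 0.10, under TMM; highest adjusted p 0.00167, edgeR). Glul, glutamine synthetase, had 38317, 38520 and 40478 counts in HP, against 31340, 36610 and 28876 counts in MP, also without overlap, and passed with nuclear scaling (log2 fold change 0.49, SE 0.06, adjusted p 1.03e-05, edgeR) but not with the other scalings (0.22, adjusted p 0.391, under TMM).

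Slc3a1 and Slc34a1 were the listed members of 11 proximal tubule transporters. Slc3a1 (chromosome 6, 8284878 to 8318674) had 40527, 39190 and 38220 counts in HP, against 27533, 32106 and 25605 counts in MP. In these counts the HP libraries lay close together and above the MP libraries, with means of 39312 ± 1158 in HP and 28415 ± 3339 in MP (SD, n = 3 each). After TMM scaling HP ran from 33784 to 47075 and MP from 24890 to 35725, so the groups overlapped. HP was 1.26-fold to 1.60-fold higher over the scalings (log2 fold change 0.40, SE 0.14, under TMM; highest adjusted p 0.0465, edgeR). This call was near the threshold under TMM: leaving out HP replicate 2, HP replicate 3 or MP replicate 1 gave highest adjusted p-values of 0.118, 0.144 and 0.171.

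Slc34a1, the sodium-phosphate cotransporter of the proximal tubule, had 30138, 35895 and 36063 counts in HP, against 41104, 50477 and 37264 counts in MP. The groups did not overlap, but HP replicate 3 and MP replicate 3 were close. Its log2 fold change was -0.38 under TMM (SE 0.20, adjusted p 0.184, edgeR) and of the 4 scalings it passed under median-of-ratios factors alone (-0.45, adjusted p 0.0191). With HP and MP fitted alone and the replicate number as a block, it passed as lower under TMM (-0.53, adjusted p 4.02e-06), median-of-ratios factors (0.000305) and no scaling (0.0238), but not with nuclear scaling (0.159). The same libraries without the block gave 0 of 4 scalings passed (TMM -0.51, SE 0.18, adjusted p 0.0816, edgeR). Under TMM the blocked fit gave each gene nearly the same SE, from 0.0940 for COX3 to 0.0962 for Pck1. Its p-values thus rest on a spread pooled over genes and do not measure that of Slc34a1 itself. Atp1b1 is a subunit of the sodium pump. In the fit of all 18 libraries it too passed as lower with median-of-ratios factors alone, with a log2 fold change of -0.27. Under nuclear scaling its sign turned, to 0.061. With HP and MP fitted alone it passed under TMM with the block (adjusted p 0.00248, edgeR) and without it (0.0179).

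**Figure D1:**
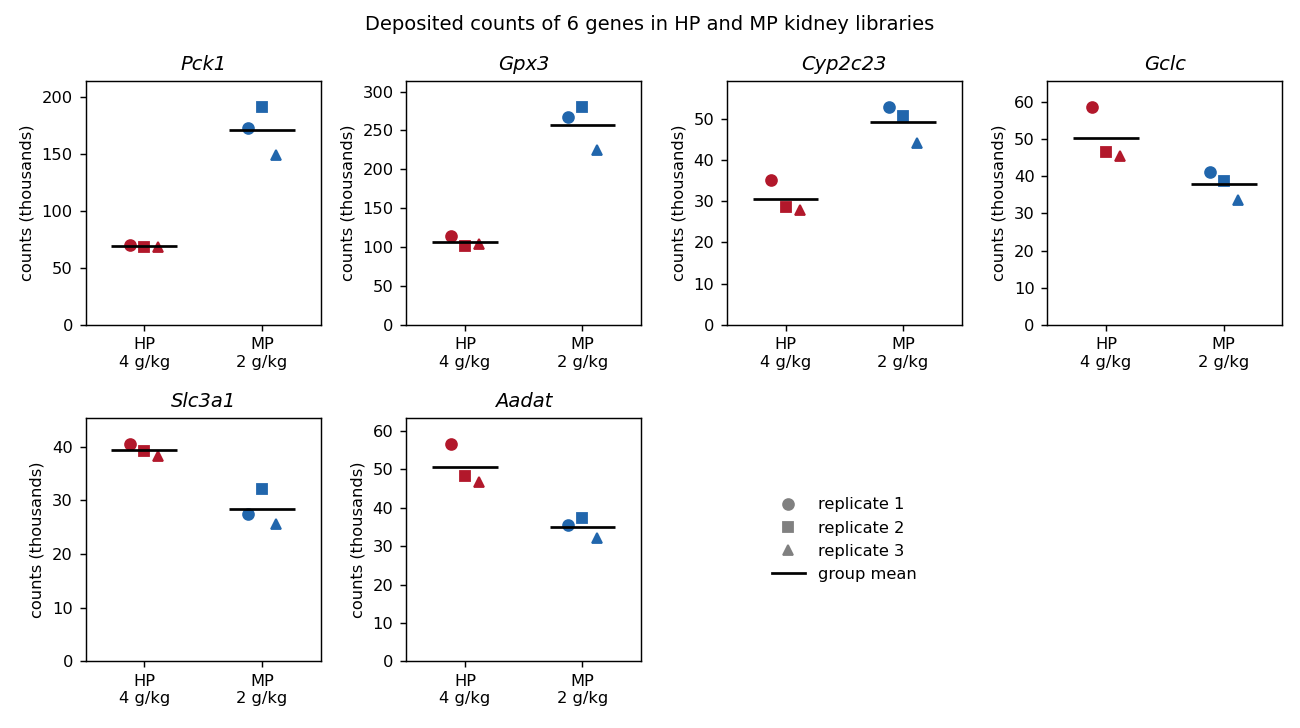
Deposited counts, on axes that start at 0, of 6 of the 7 genes whose difference was held under all 4 scalings, with HP left of MP. Each marker is a library, its shape gives the replicate number, and bars are group means. For Pck1, Gpx3 and Cyp2c23 the HP libraries lie below the MP libraries, and for Gclc, Slc3a1 and Aadat above them.

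The HP and MP libraries did not overlap in the deposited counts of 14 of the 29 features (48.3%), 7 with HP higher and 7 with HP lower. Among nuclear genes, 5 were higher and 7 lower without overlap. Among the 12 mitochondrial genes, COX3 and CYTB were higher in HP without overlap and the other 10 overlapped. After TMM scaling, 6 of the 29 features (20.7%) had no overlap, among them Gpx3, Pck1, Cyp2c23, Gclc and Aadat. Slc3a1, Cyp4a2, Slc34a1, Hao2, Glul, COX3 and CYTB then overlapped.

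How many features passed depended on the scaling. With TMM, 8 of 29 passed (27.6%), 3 higher and 5 lower in HP, with 11 unadjusted p-values under 0.05. With median-of-ratios factors 11 passed (37.9%), 3 higher and 8 lower. Nuclear scaling gave 17 (58.6%), 13 higher and 4 lower. Unscaled counts gave 8 (27.6%), 3 higher and 5 lower. The median log2 fold change of the 29 features was 0.07 for TMM, 0.0018 for median-of-ratios factors, 0.34 on the nuclear scale and 0.13 unscaled, so a gene's value is best read against that median.

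**Figure D2:**
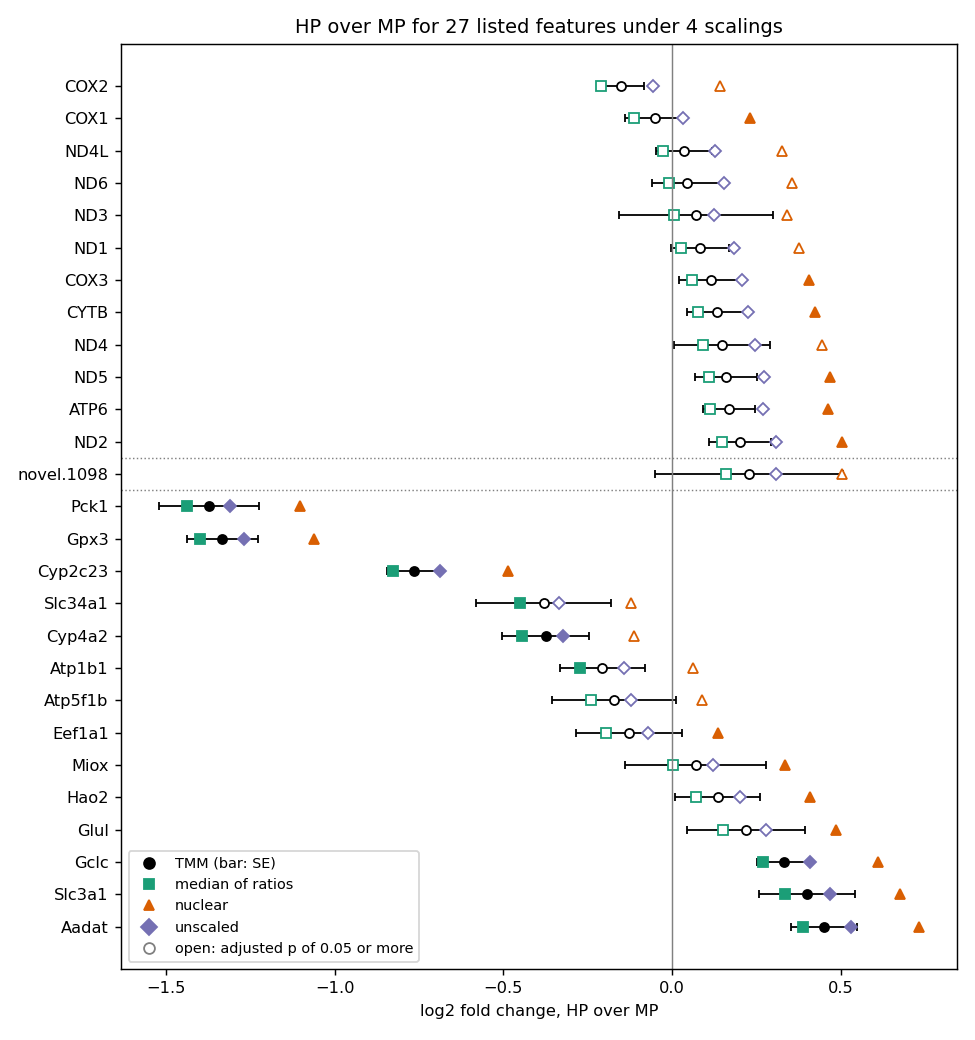
The log2 fold change, HP over MP, of 27 listed features under the 4 scalings, with the unnamed feature between the mitochondrial and the nuclear genes. Bars are the SE under TMM, and open markers did not pass. Gpx3, Pck1 and Cyp2c23 lie left of 0 and Aadat, Slc3a1 and Gclc right of 0 under each scaling, whereas COX1, COX2, ND4L, ND6, Eef1a1, Atp5f1b and Atp1b1 cross 0.

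Mitochondrial genes had a larger share of the named counts in HP than in MP libraries. Their share was 88.7%, 85.8% and 84.8% in HP replicates 1 to 3, against 82.1%, 79.3% and 81.8% in MP replicates 1 to 3. The lowest HP library lay above the highest MP library, and the 95% Wilson intervals, which cover counting error only, reached from 84.77% to 84.83% for the lowest HP library and from 82.09% to 82.15% for the highest MP library. The ratio of mitochondrial to nuclear counts, which needs no scaling, averaged 6.48 ± 1.18 in HP and 4.30 ± 0.418 in MP (SD, n = 3 each). The difference on the log2 scale was 0.58 (SE 0.17), with a two-sided exact permutation p of 0.1, the smallest that 3 against 3 libraries allow. With geometric means of the genes in place of sums, it was 0.35 (SE 0.19, two-sided exact permutation p = 0.2).

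Of the parts of this ratio, the nuclear sums were lower in HP without overlap, whereas the mitochondrial sums overlapped. Both sums are unscaled and depend on library depth, which is unknown. Nuclear counts summed to 828579 ± 13845 in HP and 1140020 ± 128313 in MP (SD, n = 3 each). Mitochondrial counts summed to 6597300, 4939603 and 4602455 in HP, against 5269190, 4834987 and 4528433 in MP, and these overlapped. HP replicate 1 had the highest count of the 6 libraries for 11 of the 12 mitochondrial genes, and without it the log2 difference of the ratio was 0.44. Gpx3 and Pck1 together took 21.2 ± 0.622% of nuclear counts in HP and 37.5 ± 0.668% in MP (SD, n = 3 each). With these genes left out of the nuclear sum, the ratio was 10.01, 7.64 and 7.05 in HP and 7.44, 6.09 and 7.13 in MP, the groups overlapped, and the log2 difference was 0.25 (two-sided exact permutation p = 0.3).

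**Figure D3:**
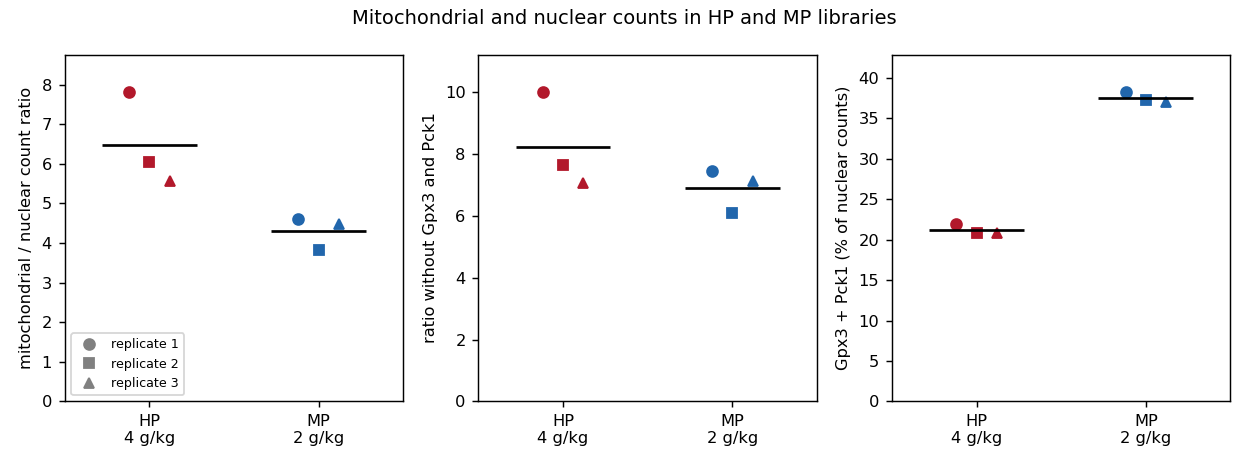
The ratio of mitochondrial to nuclear counts in each HP and MP library, with all 16 nuclear genes and with Gpx3 and Pck1 left out, and the percentage of nuclear counts that these 2 genes took. Markers are libraries, shapes give the replicate number and bars are group means. The HP libraries lie above the MP libraries in the first panel and overlap them in the second, and the percentage is lower in HP.

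Of the 12 mitochondrial genes, 0 passed under TMM, median-of-ratios factors or no scaling (edgeR; under TMM, COX2, ATP6 and ND2 had an unadjusted p under 0.05, and DESeq2 and limma called 0 as well). Under TMM single libraries altered this: without MP replicate 3, ATP6 (adjusted p 0.00883), CYTB (0.0437) and ND2 (0.0463) passed as higher in HP, and without HP replicate 1, COX2 passed as lower (0.0213). With HP and MP fitted alone, COX1 passed as lower (0.0492), and with the replicate block COX2 did (0.0116, against 0.178 without the block). With nuclear scaling COX1, COX3, ATP6, CYTB, ND2 and ND5 passed as higher in HP, with log2 fold changes from 0.23 to 0.50. Cytochrome b of complex III (CYTB) had 667585, 528368 and 496563 counts in HP, against 493930, 490359 and 462627 counts in MP. Its lowest HP library was just above its highest MP library. COX3, a core subunit of complex IV, had 842905, 691522 and 652299 counts in HP, against 632191, 648493 and 612387 counts in MP, again with little between the groups apart from HP replicate 1.

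The 7 complex I subunits coded in the mitochondrion had log2 fold changes from 0.03 to 0.20 under TMM, with a median of 0.08 beside 0.07 over all 29 features, and 0 of 7 passed (edgeR; 1 of 7, ND2, had an unadjusted p under 0.05, and DESeq2 and limma called 0). The 4 subunits of complexes III and IV had log2 fold changes from -0.15 to 0.13 with a median of 0.03. The ATP synthase list of 4 held ATP6 (0.17) and the nuclear Atp5f1b (-0.17), neither of which passed under TMM. ND4L and ND4 share bases on the mitochondrial genome, as do ND5 and ND6 on opposite strands, and the library kit does not mark strand, so reads at these overlaps cannot be assigned to one gene. The unnamed feature, on chromosome 20 and annotated in the deposited table as similar to the ND4 protein, had 110966, 66532 and 56298 counts in HP, against 89538, 51590 and 47892 counts in MP, which overlapped, and its likeness to ND4 makes both counts uncertain.

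Scaled to the geometric mean of the mitochondrial genes alone, COX2, a subunit of complex IV that receives electrons from cytochrome c, was the one that departed from the others (1 of 12, 8.33%). It made up 8.12%, 7.07% and 7.17% of mitochondrial counts in HP, against 9.33%, 8.31% and 8.15% in MP. The shares were lower in HP without overlap, though HP replicate 1 and MP replicate 3 differed by little. The log2 fold change relative to the other mitochondrial genes was -0.23 (SE 0.06, adjusted p 0.00602, edgeR), and COX2 was the 1 mitochondrial gene called with the replicate block over 18 libraries and in each of the 6 leave-one-out fits, with adjusted p-values up to 0.0376.

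**Figure D4:**
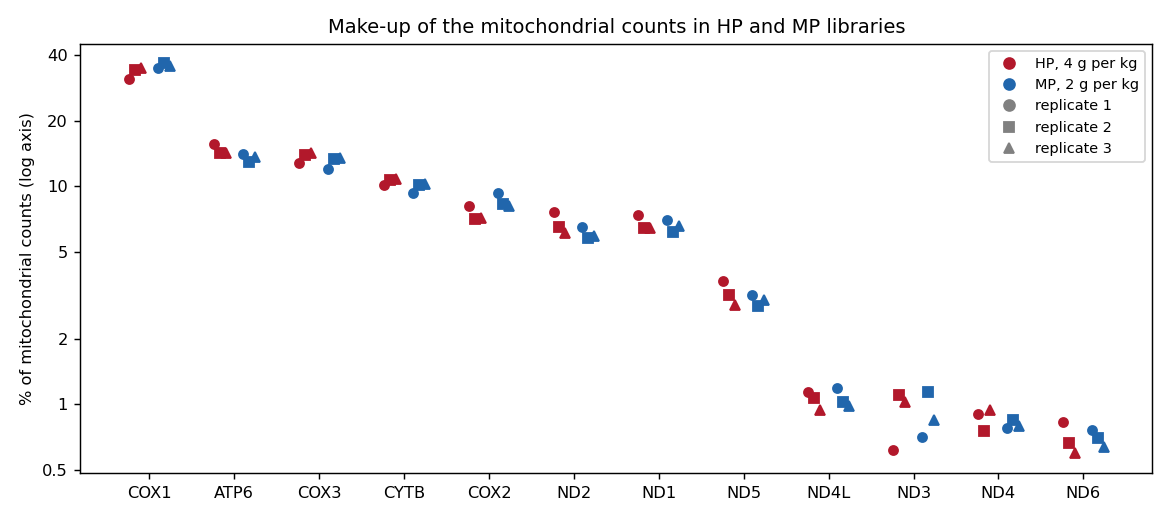
Each mitochondrial gene as a percentage of the mitochondrial counts on a log axis, with HP left of MP. Markers are libraries, and shapes give the replicate number. COX2 lies lower in HP than in MP without overlap, as does COX1, whose difference did not pass with within-genome scaling, and ATP6 lies higher without overlap.

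Scaled to the geometric mean of the nuclear genes, 17 of all 29 features passed (58.6%). Of the 16 nuclear genes 11 passed (68.8%), 7 higher and 4 lower in HP. Such a scale sets the genes against one another, so a fall in some shows as a rise in the rest. The lower genes were the 4 held ones. The higher ones were Aadat (log2 fold change 0.73), Slc3a1 (0.68), Gclc (0.61), Glul (0.49), Hao2 (0.41), Miox (0.33) and Eef1a1 (0.14), with adjusted p-values up to 0.0114 by edgeR. Hao2, a peroxisomal oxidase of hydroxy acids, had 40934, 38834 and 37373 counts in HP, against 34404, 37053 and 30337 counts in MP, with no overlap. Miox, which opens the ring of myo-inositol, overlapped between the groups in deposited counts, with 28919 to 35482 in HP and 26296 to 36352 in MP. Eef1a1, a translation elongation factor with pseudogene copies, had a negative log2 fold change (-0.13) with TMM and a positive one with nuclear scaling, so its direction depends on the scale.

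Across the dose series the held genes did not move in one direction. Pck1 made up 8.33% of nuclear counts without flour (DM), 15.0% at 1 g per kg (LP), 15.0% at 2 g per kg (MP) and 8.31% at 4 g per kg (HP), in means of 3 libraries. Gpx3 made up 12.5% of nuclear counts in DM libraries, 21.3% in LP libraries, 22.6% in MP libraries and 12.9% in HP libraries. As shares of nuclear counts, HP stood near DM and MP near LP for both genes. In TMM-scaled counts the order was less symmetric: Gpx3 averaged 142679 for DM, 338389 for LP, 282456 for MP and 112038 for HP, and Pck1 averaged 94981 for DM, 238653 for LP, 188023 for MP and 72620 for HP. The share of Cyp2c23 was 3.61% for DM, 4.04% for LP, 4.33% for MP and 3.69% for HP. Its shares overlapped between HP (3.38% to 4.18%) and MP (4.02% to 4.60%).

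As shares of nuclear counts, the 3 genes higher in HP were lowest in LP and highest in HP. Aadat made up 5.18% of nuclear counts for DM, 2.26% for LP, 3.08% for MP and 6.10% for HP. The share of Slc3a1 was 3.75% for DM, 2.24% for LP, 2.49% for MP and 4.74% for HP. Gclc had a share of 4.70% for DM, 2.75% for LP, 3.33% for MP and 6.06% for HP. These shares are taken within the nuclear sum, in which Gpx3 and Pck1 are large, so their fall raises the shares of the others. In TMM-scaled counts DM had the highest mean for all 3 genes: Aadat averaged 58929 for DM, 35934 for LP, 38604 for MP and 52735 for HP. Slc3a1 averaged 42700 for DM, 35613 for LP, 31401 for MP and 41414 for HP. Gclc averaged 53490 for DM, 43644 for LP, 41463 for MP and 52167 for HP.

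**Figure D5:**
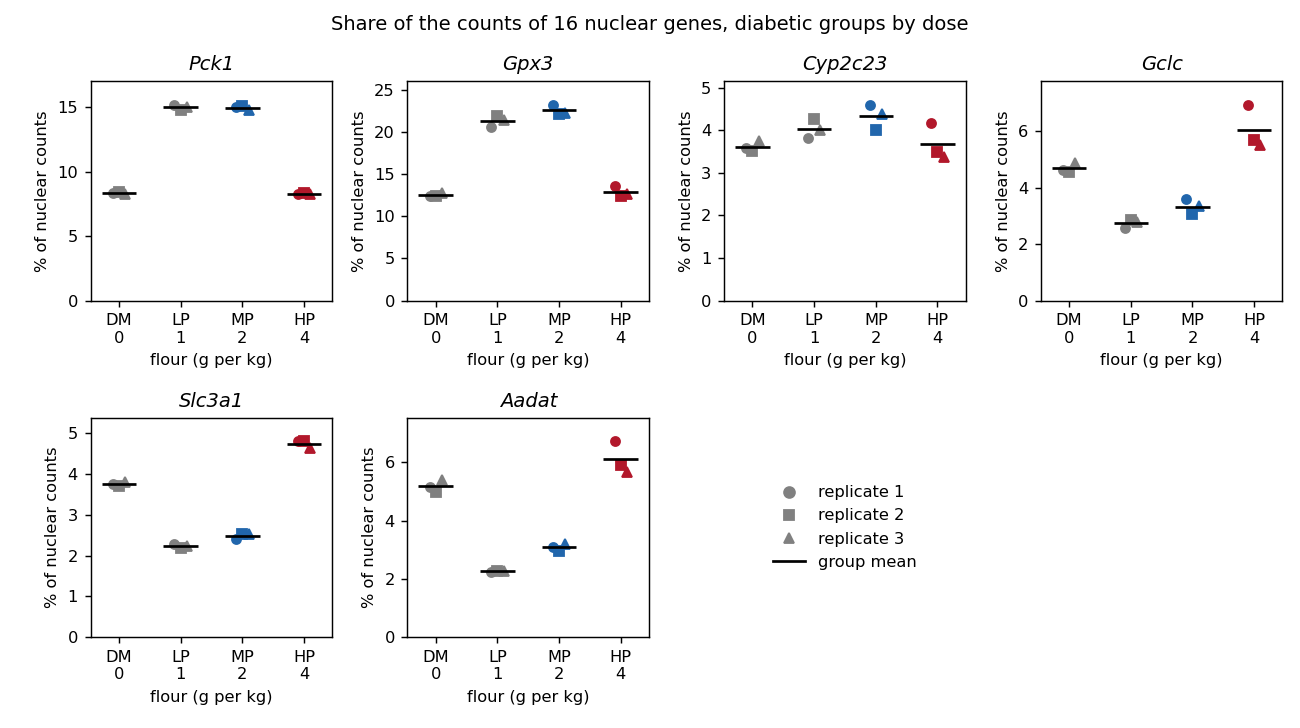
Each of 6 held genes as a percentage of the nuclear counts in DM, LP, MP and HP libraries, against dose in g per kg. Markers are libraries, shapes give the replicate number and bars are group means. Pck1 and Gpx3 are high in LP and MP and low in DM and HP, and Aadat, Slc3a1 and Gclc are low in LP and MP and high in DM and HP. Cyp2c23 overlaps between HP and MP.

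Each doubling of dose, from 1 to 2 g per kg (MP over LP) and from 2 to 4 g per kg (HP over MP), was set beside the other. Both share the MP libraries, so the difference between them was tested itself, in the fit of all 18 libraries. It was held under all 4 scalings for Gpx3, Pck1 and Cyp2c23, 3 of 29 features (10.3%), and passed with TMM for 4 of 29 (13.8%). Under TMM, Gpx3 had a log2 fold change of -1.33 for HP over MP and -0.26 for MP over LP, and the doublings differed by -1.07 (SE 0.18, adjusted p 0.000512, edgeR). Pck1 had -1.37 and -0.34, and the difference was -1.03 (SE 0.25, adjusted p 0.0112, edgeR), which was lost without MP replicate 2 (adjusted p 0.0740). Cyp2c23 had -0.77 and -0.25, and the difference was -0.52 (SE 0.14, adjusted p 0.0175, edgeR). Its call was lost when LP replicate 1 or any one of the 3 MP libraries was left out. The direction of MP over LP depended on the scaling for all 3 genes, and it was negative under TMM and median-of-ratios factors. With nuclear scaling the log2 fold change of MP over LP was 0.089 for Gpx3, 0.0032 for Pck1 and 0.11 for Cyp2c23. In unscaled counts it was 0.17, 0.085 and 0.18. Hao2 was the fourth under TMM, with a difference of 0.72 (adjusted p 0.0372, edgeR), but did not pass in unscaled counts.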

How the data were processed

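The series has 18 kidney RNA libraries in 6 groups of 3, and the labels gave each its group and number. Per the labels' protocols, the NEBNext Ultra RNA kit was used on 1 µg of RNA. CASAVA 1.7, Bowtie 0.12.2 and mm8, a mouse build, stand in the submitters' processing notes with no role given. No rat build, annotation or read counter is given in the sources used here. Positions are printed as in the table.

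All 522 deposited values are whole, so they were read as counts, although the authors' table is titled as FPKM. The table analysed here has 29 features, library depth is unknown, and the feature count sums are not depths.

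Differences were tested two-sided with edgeR 4.0.16 in R 4.3.3 (quasi-likelihood F test, 1 fit over 18 libraries, no dispersion trend, no filter, SE as the log2 fold change over the square root of F). Genes described in full were those whose difference was held under all 4 scalings, and the rest were summarised; 2 listed genes are counted in the totals but not reported here. Alternatives were DESeq2 1.42.0, limma 3.58.1 on log2(scaled count + 1), a low-count filter, HP and MP fitted alone, a replicate block, and each library left out. The members and the gene lists were chosen with earlier results of these data known. The test was also run on simulated counts with known changes.

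Replicate libraries differed by far more than sampling noise and each counted as 1 sample. Nothing in the labels ties them to separate animals, and p-values then describe only the variation among these libraries, which may be technical. HP and MP libraries with the same number deviated together from their group means for replicates 1 and 2 (r = 0.881 and 0.807). For replicate 3 they did so little (r = 0.149), and HP replicate 3 and MP replicate 2 had r = 0.909. Deviations from a mean of 3 libraries are tied to one another, and no label states a pairing. A pairing by number is thus a hint at most, and the replicate block is an alternative only. No batch is recorded in the labels.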

Additional observations from a re-analysis of the deposited data

Results flagged for a closer look

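For 3 genes the doubling of dose from 2 to 4 g per kg (HP over MP) and the doubling from 1 to 2 g per kg (MP over LP) had different effects by a test of the difference itself. Under TMM scaling the difference of the log2 fold changes was -1.07 for Gpx3, the secreted glutathione peroxidase (adjusted p 0.000512), -1.03 for Pck1, of gluconeogenesis (adjusted p 0.0112), and -0.52 for Cyp2c23, the arachidonic acid epoxygenase (adjusted p 0.0175), all from edgeR's quasi-likelihood test over 29 features. In MP over LP alone, Gpx3 and Cyp2c23 passed under 0 of 4 scalings and Pck1 under 1 of 4, with unadjusted p-values under TMM of 0.0235 for Gpx3, 0.0313 for Pck1 and 0.00742 for Cyp2c23. For these 3 genes MP over LP was negative under TMM and median-of-ratios factors but positive with nuclear scaling and in unscaled counts. The difference was lost under at least 1 scaling without MP replicate 2 for Pck1 (adjusted p 0.0740), and for Cyp2c23 without LP replicate 1 (0.0528), MP replicate 1 (0.0962), MP replicate 2 (0.0740) or MP replicate 3 (0.0559). The cause was not tested.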

How the results depend on the processing

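Beside the 8 features changed under TMM (3 higher, 5 lower in HP), nuclear scaling gave 17 with 13 higher, median-of-ratios factors and DESeq2 each gave 8 lower, and HP and MP fitted alone with the replicate block gave 13 with 11 lower. Leaving out 1 library gave 7 to 10 changed, 2 to 6 higher and 4 to 5 lower. The differences between doublings numbered 4 under TMM, 9 with nuclear scaling, 6 with median-of-ratios factors, 7 with DESeq2, and 1 to 7 with a library left out. The replicate block over 18 libraries left all 7 held genes held and the count at 8; fitted on HP and MP alone, the block ended the call of Gclc under TMM (adjusted p 0.0677) and of no other held gene, while Slc34a1, Atp1b1, COX2, Eef1a1 and Atp5f1b were among the calls gained under TMM, all lower in HP. Without the block, HP and MP alone gave highest adjusted p-values over the scalings of 0.102 for Gclc and 0.0918 for Slc3a1. Of the gained calls named, Atp1b1 then passed under TMM (adjusted p 0.0179, edgeR). Slc34a1 (0.0816), COX2 (0.178), Eef1a1 (0.211) and Atp5f1b (0.211) did not. Under TMM the blocked fit of HP and MP alone gave nearly the same SE to each gene, so its p-values rest on a spread pooled over genes. Taken as differences within replicate numbers (the replicate block), the log2 ratio of mitochondrial to nuclear counts differed by 0.58 (exact sign-flip p = 0.25, the smallest 3 pairs allow). Of 42 combinations of a held gene and an omitted library, 5 lost the call, 3 for Slc3a1 and 2 for Gclc.

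The following log2 fold changes turned sign. With median-of-ratios factors and DESeq2, ND4L was -0.026 and ND6 -0.010. With nuclear scaling, COX1 was 0.23, COX2 0.14, Atp1b1 0.061, Eef1a1 0.14 and Atp5f1b 0.088. Unscaled, COX1 was 0.031. With HP and MP alone and no replicate block, COX3 was -7.9e-05, ND1 -0.037, ND4L -0.090, ND3 -0.052, ND6 -0.073 and Miox -0.058; with the replicate block, ND1 was -0.043, ND4L -0.095, ND3 -0.060, ND6 -0.095 and Miox -0.067. Leaving out 1 library gave ranges of -0.36 to 0.010 for Atp5f1b, -0.14 to 0.026 for COX1, -0.010 to 0.23 for COX3, -0.27 to 0.040 for Eef1a1, -0.13 to 0.27 for Miox, -0.13 to 0.29 for ND3, -0.021 to 0.095 for ND4L and -0.094 to 0.13 for ND6. Summing ND4 with the unnamed feature, an alternative chosen after seeing the data, gave 0.13 (adjusted p 0.63, edgeR). The cause of these turns was not tested. Counts are high, so counting error is small; the number of libraries and the 29 listed features limit what can be seen.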

Other observations

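ND3, a small subunit of complex I, had its lowest count in replicate 1 of both groups. Its counts were 40793, 54361 and 47159 in HP replicates 1 to 3, against 37375, 54952 and 38202 in MP replicates 1 to 3, and the groups overlapped. For the other 11 mitochondrial genes, HP replicate 1 had the highest deposited count of the 6 libraries. It also had the largest sum over the listed features (7552061). After TMM scaling another library was higher for COX1, COX3, CYTB, COX2 and ND4.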
